A study of Mus musculus with 4 samples.

Results

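The cells described here are the ductal cells of the mouse pancreas 6 weeks after caerulein, from the library labelled C6W. They were selected on measured values: at least 5 UMIs (unique molecular identifiers, which count RNA molecules) of Krt8 and Krt18 together and at least 5 of Spp1, Krt19, Sox9, Tm4sf4 and Epcam together, no UMI of the leukocyte gene Ptprc, at most 2 of the fibroblast gene Col3a1, and under 10% of UMIs from 8 digestive enzyme genes. In C6W 541 of 2773 filtered barcodes met these limits, of 12807 filtered barcodes in all 4 libraries. The same limits selected 226 of 2032 barcodes in S6W, 725 of 3346 in S2D and 194 of 4656 in C2D.

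Ductal cells line the tree that carries acinar enzymes to the intestine. They secrete bicarbonate-rich fluid through chloride channels and exchangers, keep a primary cilium, and are held together by keratins, claudins and the adhesion protein Epcam. Caerulein is an analogue of the hormone cholecystokinin; repeated doses overstimulate acinar cells and cause acute pancreatitis, after which ducts are exposed to inflammation while the acinar tissue is rebuilt.

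All 4 groups came from wild-type C57BL/6 mice and differed in treatment and recovery: caerulein with 6 weeks (C6W), saline with 6 weeks (S6W), saline with 2 days (S2D) and caerulein with 2 days (C2D). Pancreata were dissociated, cells that excluded the dye DAPI were sorted, and droplets were run on the 10x Genomics 3' assay. Each group was 1 library. The labels used here give no dose, age or number of animals, so differences between libraries could not be set against the spread between mice, and no p-value was computed.

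The ductal barcodes held 6323359 UMIs in C6W, 2551048 in S6W, 7011458 in S2D and 4386760 in C2D. Median depth was 11197 UMIs per cell in C6W, 10409 in S6W, 8974 in S2D and 19478.5 in C2D. Levels below are CPM, each gene's UMIs over the library's ductal total after TMM scaling, with exact 95% Poisson intervals, and differences are log2 ratios with exact conditional binomial intervals. These intervals cover counting error only. Genes with at least 100 UMIs over a pair of libraries were compared, and a gene is called higher or lower at 2-fold or more. In bulk sums of this kind, fewer expressing cells and less RNA per cell cannot be told apart, so shares of cells are given where they help.

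The marker genes used for selection stood at similar levels in C6W and both saline libraries. Spp1, which encodes osteopontin, was at 18528 CPM in C6W, 16153 in S6W, 16407 in S2D and 23982 in C2D. Krt18 was at 4765 CPM in C6W, 4732 in S6W, 4550 in S2D and 6455 in C2D. Krt19 was at 884 CPM in C6W, 943 in S6W, 794 in S2D and 795 in C2D. Tm4sf4, a tetraspanin-like membrane protein, was at 1833 CPM in C6W, 1905 in S6W, 1634 in S2D and 1435 in C2D. These values follow in part from the selection and describe it. Duct genes that the limits did not use also fitted the label: in C6W the chloride channel gene Cftr was at 51.7 plain CPM in ductal cells and 0.583 in the other 2232 barcodes, and the keratin gene Krt7 at 173 and 2.72. A UMI of Krt7 was found in 75.2% of C6W ductal cells.

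Few C6W barcodes lay near the limits. In C6W 12 selected barcodes had a keratin sum of 5 to 7, with a median of 3248.5 UMIs, and 4 barcodes failed at a sum of 3 to 4, with a median of 3164. For the duct gene sum the counts were 9 inside at 5 to 7 and 4 outside at 3 to 4. On the digestive limit 5 barcodes lay at 5 to 10% and 3 outside at 10 to 15%, and 14 otherwise fitting barcodes had Ptprc UMIs. The C2D selection depended more on the limits. Beside its 194 selected barcodes, 61 otherwise fitting ones had Ptprc UMIs. On the digestive limit 15 C2D barcodes lay inside at 5 to 10% and 35 outside at 10 to 15%.

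Apart from acinar enzyme genes, markers of other cells were low in most of the selected barcodes. The 11 acinar markers summed to 7759 CPM in C6W, 7384 in S6W, 12930 in S2D and 8159 in C2D. In C6W 540 of 541 cells held 3 or more UMIs of them. The acinar factor genes Rbpjl, Ptf1a and Bhlha15 had 5, 0 and 4 UMIs in C6W. The 7 macrophage markers summed to 185 UMIs in C6W, 76 in S6W, 199 in S2D and 1042 in C2D. Csf1r (96 UMIs) and Cd68 (69) made up most of the C6W sum, with Lyz2 at 12, C1qa at 4, and Adgre1 and C1qc at 0; in C2D Lyz2 had 516, C1qa 133, Csf1r 38 and Cd68 77. Ms4a1 of B cells had 4 UMIs in C6W, and Cd3d, Cd3e and Cd3g had none. The fibroblast gene Dcn had 154 UMIs in C6W, against 35 in S6W, 61 in S2D and 38 in C2D. Endothelial markers had 158 UMIs in C6W, against 7 in S6W, 20 in S2D and 80 in C2D. In C6W 5 cells held 144 of the 158, but only 1 cell held 3 or more, so most came from 1 cell. Plvap gave 79 of the 158 and Pecam1 26. The part of cells with such markers in the results was not tested. Islet hormone genes came from a few barcodes: 7 C6W cells held 3 or more UMIs of the 8 islet markers, and the 5 highest cells carried 6828 of 6868 such UMIs. No ductal barcode of C6W was shared with S6W or C2D, and 1 was shared with S2D.

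Ductal cells made up 19.5% of filtered barcodes in C6W (18.05 to 21.0%, Clopper-Pearson), against 11.1% in S6W (9.79 to 12.6%), 21.7% in S2D (20.3 to 23.1%) and 4.17% in C2D (3.61 to 4.78%). Among barcodes without Ptprc UMIs the shares were 25.4% in C6W, 13.5% in S6W, 34.6% in S2D and 11.1% in C2D. The C6W share was thus above that of S6W and below that of S2D, and the saline libraries lay further from each other than either lay from C6W on this second scale. Dissociation and sorting can set these shares, which was not tested.

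C6W ductal cells stood close to both saline libraries across the genome and far from C2D. Over S6W, 30 genes of 8198 passed 2-fold upward (0.366%) and 24 downward (0.293%). Against S2D, 39 of 9277 were higher (0.42%) and 21 lower (0.226%). The saline libraries differed from each other by as much, with 34 of 8469 genes higher (0.401%) and 38 lower (0.449%) in S6W than in S2D. Against C2D, 405 of 8761 genes were higher (4.62%) and 465 lower (5.31%); with totals that leave out digestive genes the split was 526 and 390, and the median ratio of all genes over C2D was 0.13 in place of 0.03. Both saline libraries could be compared for 8195 genes; 7 of these were above each of them by 2-fold (0.0854%) and 2 below (0.0244%).

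**Figure D1:**
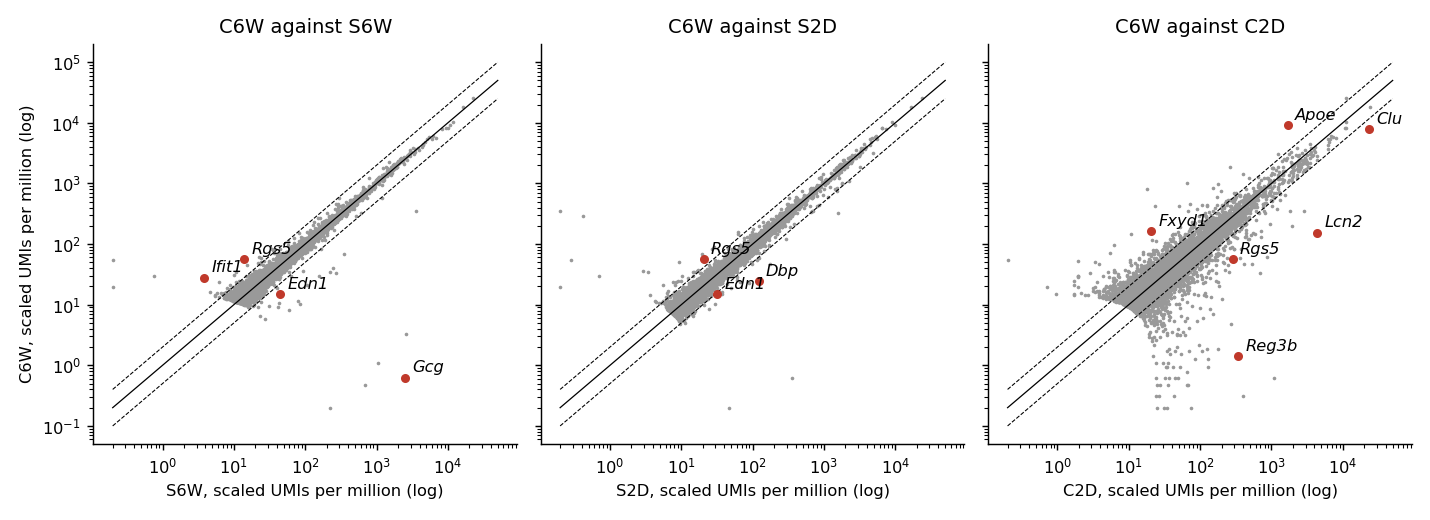
Levels of all compared genes in ductal cells of C6W (vertical) against S6W, S2D and C2D (horizontal), as scaled CPM on log axes, with levels under 0.2 drawn at 0.2. The solid line marks equality and dashed lines 2-fold; points hug the line against S6W and S2D and spread against C2D, where 405 and 465 genes lay past 2-fold.

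The 7 genes higher than in both saline libraries fell into 2 kinds. Cldn2, Rgs5, Fabp5 and Id3 were spread over 66 to 137 cells each. Pgc, Ccl5 and Tac1 each came almost wholly from 1 cell. The 2 lower genes were Edn1, spread over 67 cells, and the islet hormone gene Gcg.

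Cldn2 encodes a claudin that forms cation- and water-permeable pores in leaky epithelia. It was at 23.6 CPM in C6W (19.97 to 27.7), against 6.15 in S6W, 7.69 in S2D and 180 in C2D. The C6W level was thus above both saline levels and far below C2D, and its log2 ratio was 1.94 over S6W (1.19 to 2.78) and 1.62 over S2D (1.16 to 2.09). With every cell thinned to 2000 UMIs, 4.30% of C6W cells had a Cldn2 UMI (2.74 to 6.38%), against 1.33% in S6W, 0.838% in S2D and 28.5% in C2D; unthinned, 12.2%, 5.31%, 5.38% and 69.6%. No thinned lymphocyte of any library, 345 of them in C6W, had one. These lymphocytes were chosen to lack Krt8 and Krt18 UMIs, which leaves out those that carry stray duct RNA. A lack of UMIs in them therefore says little about background, here and for the genes below. Lymphocytes had a median of 8269 UMIs in C6W, against 11197 in the ductal cells.

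Rgs5 encodes a regulator that ends G-protein signals and is best known from pericytes. It was at 56.5 CPM in C6W (50.9 to 62.7), against 13.8 in S6W, 20.6 in S2D and 284 in C2D. C6W lay above both saline libraries and below C2D. The log2 ratio was 2.03 over S6W (1.54 to 2.57) and 1.46 over S2D (1.18 to 1.75), and 137 of 541 C6W cells held a UMI. The 3 other mural markers (Pdgfrb, Acta2 and Myh11) summed to 8 UMIs in C6W ductal cells, against 362 for Rgs5. After thinning, 6.17% of C6W cells had an Rgs5 UMI, against 2.21% in S6W, 2.79% in S2D and 29.5% in C2D, and no C6W lymphocyte did. Unthinned, the shares were 25.3% in C6W, 8.41% in S6W, 10.8% in S2D and 68.6% in C2D.

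Fabp5, a fatty acid binding protein of epidermis and activated cells, was at 34.0 CPM in C6W (29.7 to 38.9), against 10.8 in S6W, 14.8 in S2D and 252 in C2D. Its log2 ratio was 1.66 over S6W (1.09 to 2.29) and 1.199 over S2D (0.86 to 1.55). Thinned shares were 6.36% in C6W, 2.65% in S6W, 3.63% in S2D and 28.5% in C2D, beside 1.74% of C6W lymphocytes; unthinned, 24.4%, 10.6%, 9.93% and 76.3%. On thinned counts the ratio over S2D was 0.71, under the 2-fold limit.

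Id3, an inhibitor of basic helix-loop-helix factors and a common target of BMP signals, was at 24.2 CPM in C6W (20.6 to 28.3), against 11.9 in S6W, 9.79 in S2D and 18.5 in C2D. Its log2 ratio was 1.02 over S6W (0.46 to 1.63) and 1.31 over S2D (0.89 to 1.73). Unthinned, 14.05% of C6W cells had a UMI; after thinning 3.36% did, beside 5.51% of C6W lymphocytes, which do not serve as a background for this gene. Without the doublet calls the ratio over S6W was 0.76, and 1 cell gave 26 of its 155 UMIs. Id3 stood at 741 plain CPM in the other C6W barcodes, against 24.5 in ductal cells. These values were 512 and 12.2 in S6W, 325 and 9.98 in S2D, and 291 and 17.6 in C2D. Other barcodes and ductal cells thus both stood higher in C6W than in the saline libraries. The part of RNA from other cells in the ductal Id3 levels was not tested.

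Edn1 encodes the vasoconstrictor endothelin-1. It was at 14.99 CPM in C6W (12.1 to 18.3), against 44.2 in S6W, 31.8 in S2D and 82.1 in C2D, which made C6W the lowest of the 4 libraries. The log2 ratio was -1.56 over S6W (-1.97 to -1.16) and -1.08 over S2D (-1.44 to -0.73). Thinned shares were 2.24% in C6W, 8.85% in S6W, 6.56% in S2D and 9.84% in C2D, and no thinned C6W lymphocyte had an Edn1 UMI; unthinned, 12.4%, 22.1%, 16.7% and 34.5%. Without cells bearing mesothelial, tuft or islet markers the ratio over S2D was -0.87.

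The promoters of Cldn2 and Rgs5, the pair with the highest ratios over S6W among genes spread over many cells and named in both saline comparisons, are shown for context (RefSeq, GRCm38.p6, 5' to 3' on the gene's strand, from 250 bases before to 50 after the annotated start). Cldn2 lies at chrX:139800558-139800857 on the plus strand and Rgs5 at chr1:169655251-169655550 on the plus strand. Matches to 4 motifs on either strand are in capitals. The TATA box was searched as TATAAA. The AP-1 site was searched as TGANTCA, where N is any base. The BMP response core was searched as GGCGCC. The interferon response element was searched as a pair of GAAA blocks with 2 bases between them.

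Cldn2: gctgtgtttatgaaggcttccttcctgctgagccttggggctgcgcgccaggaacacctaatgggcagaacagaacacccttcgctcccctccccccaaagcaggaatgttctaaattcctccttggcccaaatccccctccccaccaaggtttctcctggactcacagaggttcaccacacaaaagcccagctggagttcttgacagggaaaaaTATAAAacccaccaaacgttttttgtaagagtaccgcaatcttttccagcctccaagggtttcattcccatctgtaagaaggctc

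Rgs5: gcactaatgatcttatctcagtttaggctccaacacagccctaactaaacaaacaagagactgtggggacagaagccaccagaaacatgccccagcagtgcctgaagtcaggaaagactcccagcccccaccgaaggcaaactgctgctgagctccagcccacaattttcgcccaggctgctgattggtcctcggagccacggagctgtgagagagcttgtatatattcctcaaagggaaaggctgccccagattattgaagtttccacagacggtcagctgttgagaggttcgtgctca

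Cldn2 held 1 match, a TATA box 35 bases before the start, which 14.2% of 27025 promoters of this length also held somewhere. Rgs5 held no match to these 4 motifs in this window. The other motifs occurred in 7.93% (AP-1), 12% (BMP response core) and 3.49% (interferon response element) of promoters. A match is a string of letters, and binding was not measured.

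**Figure D2:**
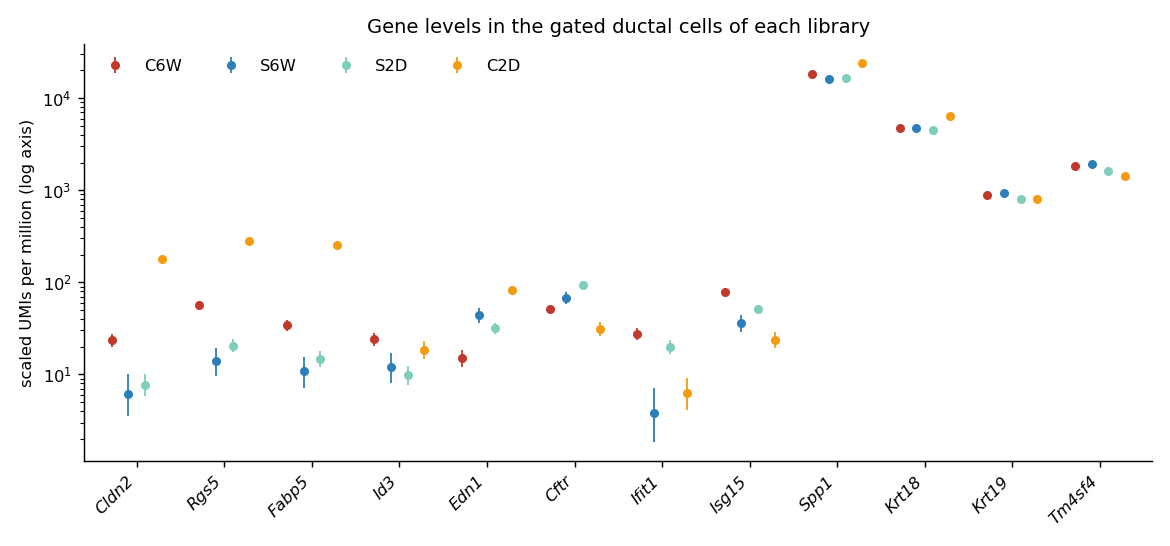
Levels of 12 genes in ductal cells of C6W, S6W, S2D and C2D, as scaled CPM on a log axis; points are single libraries and bars exact 95% Poisson intervals. Cldn2, Rgs5 and Fabp5 lie between the saline libraries and C2D, Edn1 is lowest in C6W, and the 4 selection markers at the right lie close together.

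The remaining genes at the top of the ratios belonged to single cells. Of 347 Pgc UMIs (the stomach protease precursor pepsinogen C), 346 were in 1 cell, which also accounted for nearly all of Gkn3, a gastrokine, with 94 of 96 UMIs in 1 cell. That cell was the 1 doublet call among C6W ductal cells. Pgc had no UMI in S6W and 2 in S2D. Of 191 UMIs of the chemokine gene Ccl5, 183 were in 1 cell, and all 127 UMIs of the tachykinin gene Tac1 were in 1 cell. With the highest cell of each gene left out, a choice made after seeing these values, 5 genes were higher and 3 lower than in both saline libraries.

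The 10 named genes lowest in C6W against S6W were Gcg, Sst, Scg5, Resp18, Tmem27, Cpe, Rbp4, Pcsk1n, Pcsk2 and Scg2. Most are hormone, granule or prohormone-processing genes of islet cells. Gcg, which encodes glucagon, had 4 UMIs in C6W (0.625 CPM), against 2470 CPM in S6W, 356 in S2D and 1084 in C2D, and 1 S6W cell carried 4427 of that library's 6429 UMIs. Sst, which encodes somatostatin, was at 345 CPM in C6W, against 3610 in S6W, 0.14 in S2D and 1806 in C2D, so the saline libraries lay at opposite ends. Without cells bearing markers of other epithelia, 6 genes in place of 24 were lower in C6W than in S6W.

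At 1.5-fold or more, a limit added after seeing the data, 41 genes were higher in C6W than in both saline libraries and 10 lower, the calls above included. Thbs1, a matrix protein that activates TGF-beta, was at 82.5 CPM in C6W, against 34.6 in S6W, 44.6 in S2D and 298 in C2D. Casp4, the inflammatory caspase that senses lipopolysaccharide (caspase-11 in mice), was at 71.2 CPM in C6W, against 43.0 in S6W, 46.3 in S2D and 99.9 in C2D. Tmem45a was at 27.6 CPM in C6W, against 16.1 in S6W, 12.3 in S2D and 137 in C2D, and the creatine kinase gene Ckb at 36.9, 22.3, 16.9 and 220. For these genes C6W lay above both saline libraries and below C2D. Hnrnpa0, an RNA-binding protein, did not share that order, with 227 CPM in C6W, 133 in S6W, 139 in S2D and 82.4 in C2D. Other genes of this group were also lower in C2D than in C6W. Isg15 was at 78.7 CPM in C6W and 23.8 in C2D, Dcn at 24.1 and 9.13, and Gbp7 at 16.1 and 3.36. The 41 genes thus held both orders. On the lower side, the Wnt modulator gene Sfrp1 was at 11.6 CPM in C6W, 19.98 in S6W and 19.2 in S2D, and Rarres2, which encodes chemerin, at 12.8, 21.5 and 21.5.

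Gene lists were read by role. Over all genes 0.366% were higher and 0.293% lower than in S6W, and 0.42% and 0.226% against S2D. The transport, structural and regulatory lists of the duct showed few calls against saline. None of the 23 ion and water transport genes compared was called against S2D, and 1 against S6W, the water channel gene Aqp5, at 30.5 CPM in C6W, 9.99 in S6W, 22.9 in S2D and 91.5 in C2D. Cftr, the chloride and bicarbonate channel, was at 51.1 CPM in C6W (45.7 to 56.9), against 68.0 in S6W (58.3 to 78.8), 93.4 in S2D (86.5 to 101) and 31.2 in C2D. Its C6W interval lay below those of both saline libraries, with log2 ratios of -0.41 and -0.87, short of 2-fold. The saline libraries differed by a similar amount, with S6W over S2D at -0.46 (-0.71 to -0.22). After thinning, 6.92% of C6W cells had a Cftr UMI, against 12.8% in S6W, 16.6% in S2D and 4.66% in C2D, and no C6W lymphocyte did; unthinned, 31.1%, 36.3%, 42.1% and 32.0%. The sodium bicarbonate cotransporter gene Slc4a4 differed little, at 53.4 CPM in C6W, 48.0 in S6W, 56.1 in S2D and 61.5 in C2D.

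Among duct transcription factors 1 of 17 was called against S6W and 1 of 20 against S2D, Id3 in both, higher. Of all genes 0.366% and 0.42% were higher. Prox1 was at 226 CPM in C6W, 184 in S6W, 234 in S2D and 86.0 in C2D. Of the keratin and junction genes, 1 of 28 was called against S6W and 1 of 29 against S2D, Cldn2 in both; the tight junction gene Cldn3 was at 1039 CPM in C6W, 1082 in S6W, 1006 in S2D and 1024 in C2D. None of the primary cilium genes was called against either saline library (19 and 21 compared). Pkhd1, the fibrocystin gene of polycystic disease, was at 196 CPM in C6W, 191 in S6W, 240 in S2D and 131 in C2D.

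Of the mucin and gastric genes, 1 of 5 was called over S6W and 1 of 7 over S2D, Pgc in both. These stand beside 0.366% and 0.42% of all genes higher. Muc6 had no UMI in 541 C6W cells, which allows a share of up to 0.555% of cells with a UMI. Muc1 was at 132 CPM in C6W, 158 in S6W, 162 in S2D and 306 in C2D. The trefoil factor gene Tff2 was at 96.5 CPM in C6W, 89.1 in S6W, 171 in S2D and 68.0 in C2D, and its thinned share was 17.0% in C6W cells (59.15% unthinned) against 8.41% in C6W lymphocytes.

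Of the interferon response genes, 4 of 20 were called higher over S6W (Ifit1, Gbp7, Rtp4 and Isg15), beside 0.366% of all genes, and the median over 30 members was 0.77, against 0.02 over all genes. Against S2D none of 24 was called and the median was 0.41. The median of S6W over S2D was -0.27. Ifit1, an RNA-binding antiviral protein, was at 27.6 CPM in C6W, 3.84 in S6W, 19.9 in S2D and 6.24 in C2D. Its 5 highest C6W cells carried 91 of 177 UMIs. Isg15, the ubiquitin-like modifier, was at 78.7 CPM in C6W, 35.7 in S6W, 51.2 in S2D and 23.8 in C2D. It had a UMI in 8.97% of thinned C6W cells, beside 6.09% of C6W lymphocytes, and in 32.5% unthinned. Rtp4 was at 48.6 CPM in C6W, 21.5 in S6W, 33.4 in S2D and 20.7 in C2D.

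The promoters of Ifit1 and Isg15 are shown because both genes of this response were called over S6W (same source and layout as above). Ifit1 lies at chr19:34640639-34640938 on the plus strand and Isg15 at chr4:156200769-156201068 on the minus strand, both printed on the gene's own strand. Capitals mark matches to the interferon response element on either strand, and neither promoter held one of the other 3 motifs.

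Ifit1: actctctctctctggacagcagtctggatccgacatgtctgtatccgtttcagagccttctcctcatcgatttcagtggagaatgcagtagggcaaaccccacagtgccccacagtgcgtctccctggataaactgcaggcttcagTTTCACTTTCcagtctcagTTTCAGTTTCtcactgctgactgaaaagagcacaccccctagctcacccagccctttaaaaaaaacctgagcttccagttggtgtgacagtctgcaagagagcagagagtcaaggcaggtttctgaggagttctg

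Isg15: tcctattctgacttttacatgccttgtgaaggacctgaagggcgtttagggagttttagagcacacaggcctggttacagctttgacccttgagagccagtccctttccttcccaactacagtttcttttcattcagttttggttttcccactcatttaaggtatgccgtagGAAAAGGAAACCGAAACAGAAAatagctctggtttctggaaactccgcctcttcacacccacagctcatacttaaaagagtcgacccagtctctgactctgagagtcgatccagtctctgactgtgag

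Ifit1 held 2 matches, the first 104 bases before the start, and Isg15 held 3 overlapping ones, the first 78 bases before. Of all promoters 3.49% held at least 1. The promoter of Edn1, a gene lower in C6W, was searched too and held 1 match, 78 bases before the start.

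None of 11 secreted defence genes was called against either saline library, and Lcn2, the siderophore-binding lipocalin that marks injured epithelium, was at 154 CPM in C6W, 172 in S6W, 171 in S2D and 4357 in C2D. Of the complement genes, C3 was called against S6W, at 61.2 CPM in C6W, 22.3 in S6W, 43.5 in S2D and 853 in C2D. In the chemokine and NF-kB list 1 of 20 was higher than in S6W (0.366% of all genes) and 2 of 20 lower than in S2D (0.226%). Cxcl2, a neutrophil attractant, was in both, at 58.1 CPM in C6W, 24.2 in S6W, 123 in S2D and 366 in C2D. The invariant chain gene Cd74 was at 44.8 CPM in C6W, 15.4 in S6W, 63.4 in S2D and 244 in C2D, and at 10736 plain CPM in C6W lymphocytes. For Cxcl2 and Cd74 the C6W level lay between the saline libraries. Cd74 was the 1 MHC class II gene compared over S6W; the list's median was 1.23 over S6W and -0.50 over S2D, each over 7 members, and -1.65 for S6W over S2D over 6 members. The chemokine list had a median of 0.06 over S6W and -0.38 over S2D.

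Regeneration and injury genes gave 1 call of 21 against S6W (Anxa1, higher, beside 0.366% of all genes). Against S2D it was 1 of 21 (S100a6, lower, beside 0.226%). Of the 98 Anxa1 UMIs in C6W, 49 were in 1 cell. The Notch, EGF receptor and MAPK, Wnt, BMP and TGF-beta, YAP, AP-1, heat shock, endoplasmic reticulum stress, p53, cathepsin and cell cycle lists had no call against either saline library. Their medians lay between -0.06 and 0.24. In the MHC class I list H2-Q6 was called against S6W, 1 of 17. In the oxidative stress list the selenoprotein gene Gpx3 was lower than in S6W, 1 of 22, beside 0.293% of all genes. Gsto1 was higher than in S2D, 1 of 23, beside 0.42%. Gpx3 was at 9.68 CPM in C6W, 30.7 in S6W, 9.93 in S2D and 76.1 in C2D, so C6W stood near S2D. The metallothionein gene Mt2 was just short of a call over S6W, at 582 CPM in C6W, 294 in S6W, 421 in S2D and 483 in C2D.

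**Figure D3:**
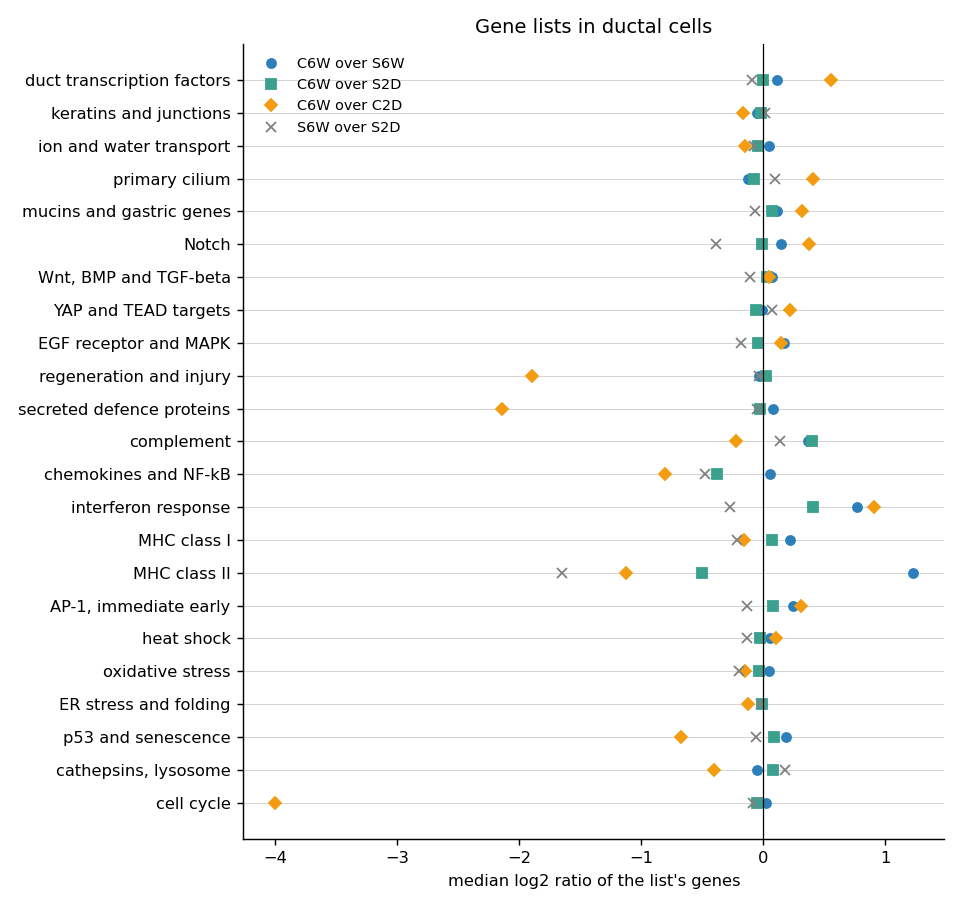
Median log2 ratio of the members of 23 gene lists with at least 20 UMIs, for C6W over S6W, over S2D and over C2D, with S6W over S2D as the difference between saline libraries. Most lists lie near 0 against saline; the cell cycle list lies at -4.00 against C2D, and the MHC class II values rest on 6 to 8 genes.

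Over C2D the same lists differed by more. Over all genes 4.62% were higher and 5.31% lower. Of 25 cell cycle genes 22 were lower in C6W and none higher, with a median of -4.00 over 27 members. Mki67, the proliferation marker, had 3 UMIs in C6W, each in a different cell, against 67.7 CPM in C2D. Of 15 defence genes 11 were lower and 2 higher, and of 28 regeneration and injury genes 17 were lower and 2 higher. Clu, which encodes clusterin, was at 7854 CPM in C6W, 8149 in S6W, 7370 in S2D and 23463 in C2D. The stress-response gene Nupr1 was at 200 CPM in C6W, 181 in S6W, 187 in S2D and 1941 in C2D, and the matrix protease gene Mmp7 at 33.0, 24.97, 18.5 and 686. Sprr1a, a cornified envelope precursor, had 2 UMIs in C6W, against 399 CPM in C2D.

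Other genes were higher in C6W than in C2D. Apoe, the lipid carrier, was at 9207 CPM in C6W, 10720 in S6W, 9921 in S2D and 1708 in C2D. The Na,K-ATPase modulator gene Fxyd1 was at 165 CPM in C6W, 201 in S6W, 184 in S2D and 20.4 in C2D. Rasl11a was at 29.5 CPM in C6W, 26.5 in S6W, 37.1 in S2D and 1.92 in C2D. Each of these C6W levels lay near the saline ones. C2cd4b was at 148 CPM in C6W, 156 in S6W, 62.5 in S2D and 10.8 in C2D, and Obp2b at 51.1, 49.9, 9.23 and 3.36, so for this pair S6W and C6W stood together above S2D. C2D ductal cells were deeper and held more macrophage marker UMIs, 1042 in C2D and 185 in C6W. Of the 7 tuft markers, Dclk1 had 209 UMIs in C2D and 65 in C6W, Avil 7 and 11, and Pou2f3 was at 0 in both. Their part in these differences was not tested.

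**Figure D4:**
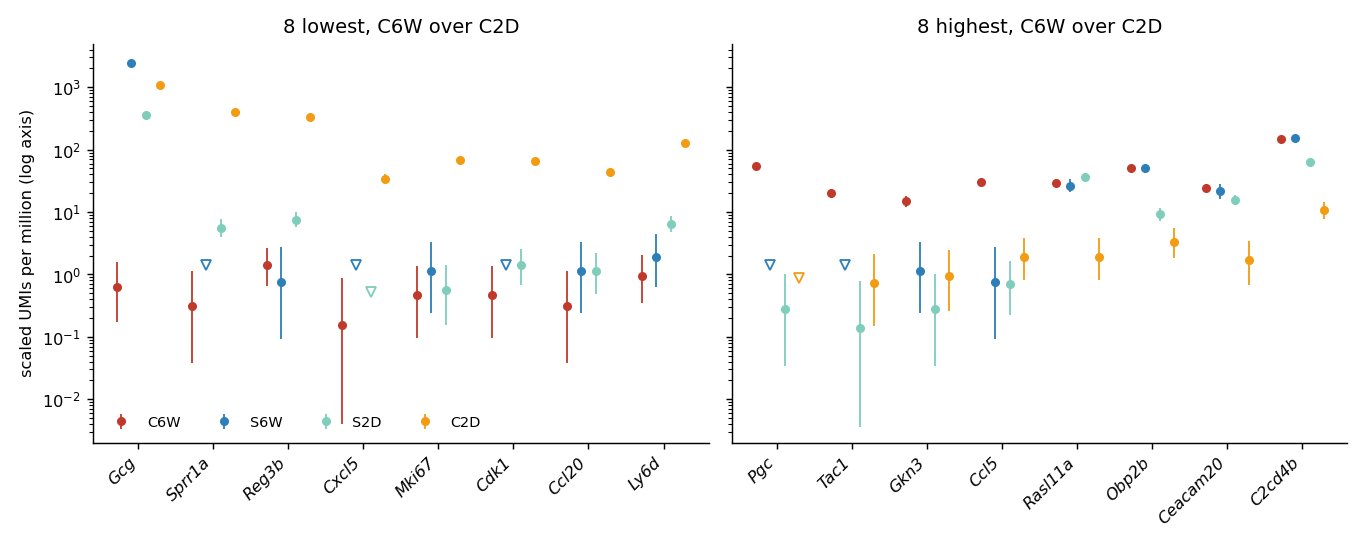
Levels of the 8 named genes lowest and the 8 highest in C6W over C2D, in C6W, S6W, S2D and C2D, as scaled CPM on a log axis with exact 95% Poisson intervals; open triangles are upper limits of libraries without UMIs. On the left C2D lies above C6W by over 100-fold; on the right Pgc, Tac1, Gkn3 and Ccl5 are each carried by 1 cell of C6W.

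The acute genes were then read at 6 weeks, in libraries that took no part in choosing them. Of 288 genes at least 2-fold higher in C2D than in S2D, 10 were at least 2-fold higher in C6W than in S6W (3.47%, beside 0.366% of all genes) and 16 lower (5.56%, beside 0.293%). These were 10 of the 30 genes called higher at 6 weeks, namely Anxa1, Aqp5, C3, Cd74, Cldn2, Cxcl2, Fabp5, Rgs5, Sult1c2 and Thbs1. Of them only Cldn2, Fabp5 and Rgs5 were also called over S2D. Anxa1, Aqp5, C3, Sult1c2 and Thbs1 were above S2D by less than 2-fold. Cd74 and Cxcl2 were below S2D, with log2 ratios of -0.50 and -1.09. All 10 were lower in S6W than in S2D, from -0.32 for Cldn2 to -2.35 for Cxcl2. How far low S6W levels account for the 3.47% was not tested. The 16 lower ones were Edn1, Gpx3 and 14 others that include the hormone and granule genes Gcg, Sst, Ins2, Chga and Chgb. Islet marker UMIs came from few cells, with 15204 of 15211 in the 5 highest C2D cells and 18726 of 20043 in those of S6W. How far such cells account for the 5.56% was not tested. Of 444 genes at least 2-fold lower in C2D than in S2D, 4 were higher at 6 weeks (0.901%, beside 0.366% of all genes), namely Gm3336, Ifit1, Irgm2 and Isg15. Another 2 were lower, Eprn and Lce6a, a share of 0.45% that is near the 0.293% of all genes.

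Clustering of the 541 C6W cells alone gave 7 clusters of 14 to 163 cells, which are described by their leading genes and were not tested. Cluster 1, 163 cells, led with Adamts5, Gadd45b, Igfbpl1 and Cftr, and Cftr was at 89.6 plain CPM there against 32.6 in the rest. Cluster 2, 92 cells, led with S100a6, Mmp7, Anxa3, Plaur, Sfn and Ly6a beside the 1 Ccl5 cell. Mmp7 and Ly6a each had UMIs in 22 of these cells, S100a6 in 23, Anxa3 in 53, and Plaur and Sfn each in 63. A single cell held 88 of 235 S100a6 UMIs, and likewise 31 of 90 for Ly6a and 124 of 622 for Sfn. Mmp7 was at 120 CPM there and Ly6a, known as Sca-1, at 72.0, and each was under 35 in the other clusters except Ly6a in cluster 7. Cluster 5, 60 cells, led with the YAP target gene Ankrd1, at 2630 CPM against 297 in the rest, with the keratin gene Krt17, Thbs1, and the sterol synthesis genes Cyp51 and Idi1. Cells with 3 or more UMIs of a 4-gene set around Ankrd1, chosen after seeing the data, were 18.7% of thinned C6W cells, against 15.9% in S6W, 13.7% in S2D and 16.1% in C2D, and no C6W lymphocyte; unthinned, 43.1%, 45.6%, 35.0% and 59.8%.

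Clusters 3 and 4 differed from these in low immediate early genes. Fos was at 238 CPM in cluster 3 (83 cells) and 446 in cluster 4 (77 cells), against 1502 to 7000 in the other clusters. Cluster 3 was also the shallowest, at a median of 5955 UMIs, and had the highest mitochondrial share, 7.12% of its UMIs, against 4.35 to 5.85% in the others. Its leading genes were islet hormones from 5 cells or fewer, and it stays unnamed. Cluster 6, 52 cells, led with Id3, Adh1, Obp2b, C2cd4b and the heat shock genes Hspa1a and Hspa1b, and held the Pgc cell. Id3 had UMIs in 10 of these cells, Obp2b in 14, Adh1 in 15, Hspa1b in 20, C2cd4b in 36 and Hspa1a in 42. A single cell held 26 of 58 Id3 UMIs, and likewise 51 of 104 for Obp2b.

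Cluster 7 held 14 cells with genes of motile cilia. Foxj1, the master regulator of motile ciliogenesis, was at 1609 CPM there against 35.5 in the rest, Tppp3 at 1234 against 5.86, and Fam183b at 1422 against 1.46, each with UMIs in all 14 cells. Spp1 was at 2803 CPM in cluster 7 against 19219 in the rest. Cldn2 was highest there too, at 205 CPM (143 to 283) against 18.7 in the rest, so 14 cells gave 36 of its 151 UMIs. Rgs5 was at 5.69 CPM in cluster 7, and was highest in clusters 2 (92.8, 76.6 to 111) and 5 (88.4, 69.6 to 111). Fabp5 was highest in cluster 5, at 90.8 CPM (71.7 to 113) against 25.8 in the rest.

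**Figure D5:**
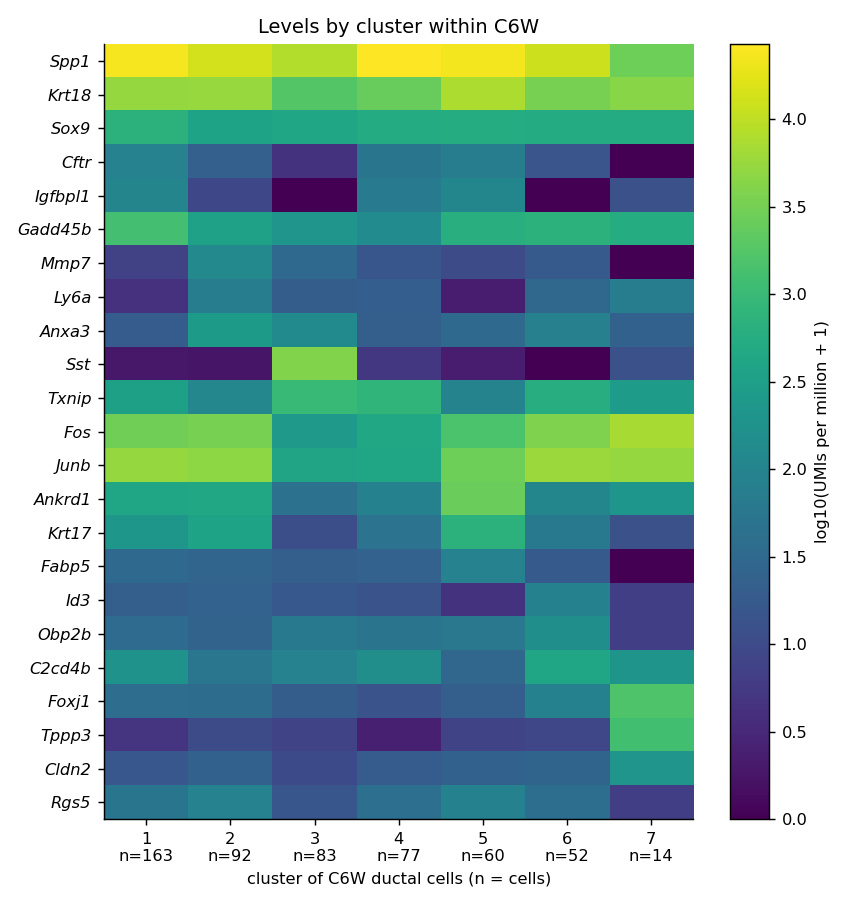
Summed level of 23 genes in each of the 7 clusters of C6W ductal cells, as log10 of plain CPM plus 1; columns are clusters with their number of cells and brighter colours are higher levels. Foxj1 and Tppp3 mark cluster 7, Ankrd1 and Krt17 cluster 5, and Fos and Junb are low in clusters 3 and 4.

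Cells with motile cilium genes were found in all 4 libraries. After thinning, 10 of 535 C6W cells (1.87%, 0.90 to 3.41%) held 5 or more UMIs of Foxj1, Tppp3 and Fam183b together, against 7 of 226 in S6W (3.10%, 1.25 to 6.28%), 20 of 716 in S2D (2.79%) and 2 of 193 in C2D (1.04%), beside none of 345 C6W lymphocytes. Unthinned, the shares were 4.44%, 8.41%, 4.83% and 10.8%.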

How the data were processed

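The authors deposited 1 matrix of raw counts (UMIs) for each library, covering 31053 genes. FastQC, Cell Ranger 3.0.2 and mm10 are listed, with no role or order, per the submitters' processing notes. Titles gave the groups. A barcode was kept if it had 500 or more UMIs, 200 or more genes, and mitochondrial UMIs of 20% or less. Scrublet (scanpy 1.11.5) called 32, 15, 38 and 19 doublets in C6W, S6W, S2D and C2D; 1, 0, 1 and 0 of these were ductal, and they stayed in.

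Sums of UMIs over ductal cells were taken and divided by TMM-scaled totals (edgeR 4.0.16, R 4.3.3). Called genes had at least 100 UMIs over the pair and an absolute log2 ratio of 1. Mitochondrial, ribosomal, haemoglobin, immunoglobulin, sex-linked, digestive and selection genes stayed out of counts. A library with 0 UMIs was given 3 counts over the group, which makes the ratio a bound. Medians of lists were taken over members with 20 UMIs or more. Lymphocytes, taken as a background for epithelial RNA, had at least 2 UMIs of Cd3 or Cd79 genes and none of Krt8, Krt18 or the C1q genes. Because keratin UMIs were barred, this background may be too low. Clusters of C6W cells used 2000 variable genes, 20 components, 15 neighbours and Leiden at resolution 0.5.

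Named genes were the selection genes, the 10 highest and lowest ratios over S6W, those called against both saline libraries, the 8 highest and lowest over C2D, up to 4 members of each list by ratio and 4 by level, and the 30 highest levels; others are named as chosen after their values were seen (Slc4a4, Muc6, Lcn2, Nupr1, Mmp7, Fxyd1, Casp4, Tmem45a, Ckb, Hnrnpa0, Sfrp1, Rarres2, cluster genes and the acute genes). The members and lists were chosen with earlier results of these data known. Alternatives covered scaling (plain CPM, DESeq2 1.42.0 size factors), count minimum, depth, doublets, selection limits and other epithelia. The ratio method was tested on simulated data.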

Additional observations from a re-analysis of the deposited data

Results flagged for a closer look

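The ratio of caerulein over saline ran past 2-fold in opposite directions at 6 weeks (C6W over S6W) and at 2 days (C2D over S2D) for 20 compared genes. With 1 library a group this difference was not tested. On the log2 scale, 4 were higher at 6 weeks and lower at 2 days: Ifit1 (2.85 and -1.67), Isg15 (1.14 and -1.11), Irgm2 (1.16 and -1.63) and Gm3336 (1.05 and -2.14). The other 16 were lower at 6 weeks and higher at 2 days. They include Edn1 (-1.56 and 1.37), Gpx3 (-1.67 and 2.94), Aplp1 (-1.99 and 1.51) and Meg3 (-1.01 and 1.33). The remaining 12 are hormone, granule or secretory genes. Their 6-week values were -11.95 for Gcg, -3.39 for Sst, -3.07 for Scg5, -3.02 for Resp18, -2.79 for Cpe and -2.65 for Rbp4. For Pcsk1n the value was -2.60, for Pcsk2 -2.41, for Scg2 -2.37, for Chga -2.35, for Ins2 -2.21 and for Chgb -1.37. The 2-day values ran from 1.30 for Scg5 to 13.66 for Sst. Islet marker UMIs came from few cells. The 5 highest cells held 6828 of 6868 in C6W and 18726 of 20043 in S6W. In S2D they held 13753 of 13802, and in C2D 15204 of 15211. The part of these cells in the opposite directions was not tested.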

How the results depend on the processing

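No paired analysis was possible because each group was 1 library. Counts are given as higher and lower genes. With a minimum of 20 UMIs they were 287 and 176 (C6W over S6W), 216 and 137 (over S2D), 919 and 1044 (over C2D), 63 and 12 (over both saline libraries), and 208 and 298 (S6W over S2D). With a minimum of 400 they were 4 and 11, 8 and 11, 142 and 177, 0 and 1, and 13 and 9 in the same order. With cells thinned to 2000 UMIs they were 4 and 8, 8 and 10, 112 and 81, 0 higher over both saline libraries, and 11 and 22. Fewer UMIs pass the minimum there by construction. At 1.5-fold, added after seeing the data, they were 208 and 83, 153 and 177, 1183 and 1132, 41 and 10, and 159 and 374. Without cells of other epithelia, 6 genes were lower than in S6W, none lower than in both saline libraries, and 14 higher in S6W than in S2D. The other 103 counts and shares stayed within 1.5 times the main count or within the main interval.

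Among barcodes without Ptprc UMIs the ductal share was 25.4% in C6W, 13.5% in S6W, 34.6% in S2D and 11.1% in C2D, and in C2D 3.35% without other epithelia.

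Reversed ratios came from genes in few cells. Without doublet calls, Pgc, then with 1 UMI, too few to read a direction, was at -2.88 over S6W, -0.84 over S2D and -2.20 over C2D, and Gkn3 at -1.62 over C2D. Without other epithelia, Gcg was at 1.15 over S2D, Pcsk2 at 0.29 over S6W, and over C2D Ccl5 was at -0.87, Sst at 0.52 and Tac1 at -1.06. Without the highest cell of each gene, Pgc was at -2.88 over S6W and -2.21 over C2D, and over C2D Ccl5 was at -0.21 and Gkn3 at -0.62. Cldn2, Rgs5 and Edn1 kept their direction over both saline libraries under every setting run. S6W has the fewest ductal UMIs, 2551048 over 226 cells, which limits what can be seen over it.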

Other observations

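Circadian clock genes, a list chosen after its values were seen, separated the 6-week libraries from S2D. Dbp, a clock output factor, was at 24.4 CPM in C6W, 18.4 in S6W, 122 in S2D and 76.6 in C2D. The repressor gene Nr1d1 was at 23.1 CPM in C6W, 20.4 in S6W, 89.8 in S2D and 67.0 in C2D. Arntl, which encodes the clock activator BMAL1, ran the other way, at 34.4 CPM in C6W, 33.4 in S6W, 14.7 in S2D and 6.48 in C2D. Of 11 clock genes compared over S2D, 6 were lower and 1 higher in C6W, beside 0.226% and 0.42% of all genes; in S6W 7 were lower and 1 higher, beside 0.449% and 0.401%. Over S6W none of 9 was called in C6W.

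Digestive enzyme RNA also differed: the median share of the 8 selection genes was 0.717% of UMIs in C6W, 0.746% in S6W, 1.37% in S2D and 0.147% in C2D. Of 32 digestive genes compared over S2D, 6 were lower in C6W and none higher, beside 0.226% and 0.42% of all genes. Over S6W none of 26 was called.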
